A study of Drosophila melanogaster
Mus musculus with 36 samples.

Results

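The fly microRNA (miRNA) hairpin mir-33 was followed through its 2 entries, dme-mir-33-5p and dme-mir-33-3p, which were chosen by name among 372 fly entries and 2038 entries in all. An entry is 1 arm of a hairpin, named dme for Drosophila melanogaster and mmu for mouse. A RefSeq gene table for fly Release 6 places mir-33 on chromosome arm 3L within 1 gene, SREBP.

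SREBP is the transcription factor that switches on genes of fatty acid synthesis, and mir-33 genes lie in introns of SREBP genes in flies and in mammals. In mammals miR-33 lowers the cholesterol exporter ABCA1 and enzymes of fatty acid oxidation. A miRNA hairpin is cut into a duplex of a 5p and a 3p arm, of which usually one is kept in an Argonaute protein and the other is degraded. Fly Hen1 methylates the last ribose of siRNAs and piRNAs but of few miRNAs, whereas plant HEN1 acts on miRNA duplexes. Sodium periodate oxidises 3′ ends that lack this methyl group, and oxidised ends are lost to adapter ligation.

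The fly RNA came from cultured S2-S cells of genotype DmHen1-KO; FLAG-MYC-AthHEN1, that is, cells without the endogenous Hen1 that express tagged Arabidopsis HEN1. All groups shared this fly RNA and RNA of clone AN3-12 of mouse embryonic stem (ES) cells, and no group without the plant enzyme was included. The 12 groups were periodate-oxidised and untreated libraries at fly to mouse RNA ratios of 1:1, 1:10, 1:100, 1:1000, 1:10000 and 1:100000, with 3 libraries each. The comparison asks how an miRNA of the methylated fly cells came through oxidation when it was an ever smaller part of the RNA.

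Oxidised libraries were much shallower than untreated ones, with 3654 to 1312983 miRNA counts against 326776 to 16619583. The 26 S2 cell entries were arms of bantam, mir-2a, mir-2b, mir-13b, mir-184, mir-14, mir-8, mir-34, mir-277 and mir-33. They took 57.8% to 71.0% of fly counts in oxidised libraries and 31.9% to 78.3% in untreated libraries. Because mir-33 is in this list, with dme-mir-33-5p at up to 15.0% of an oxidised library's fly counts, these sums are not independent of it. The 3 entries of miRNAs that S2 cells lack took at most 0.122% of fly counts in oxidised libraries, but up to 40.6% in untreated ones, where dme-mir-124-3p led the fly counts of replicates 2 and 3 at 1:100000. In untreated libraries this entry took at most 0.00215% of fly counts at 1:1. It took 2.14%, 9.29% and 8.33% in untreated replicates 1, 2 and 3 at 1:10000, and 0.933%, 40.6% and 28.7% at 1:100000. These counts are part of the fly totals under the mir-33 shares, and their effect on the shares and trends was not tested. The 16 mouse ES cell entries took 4.89% to 73.4% of mouse counts in oxidised libraries and 63.1% to 88.1% in untreated libraries. The labels do not say that replicates were separate cultures, so p-values measure only the spread between these samples, and tests over ratios treat the mixtures of 1 set as separate units.

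The 5p arm, dme-mir-33-5p, took a larger share of the fly miRNAs in oxidised than in untreated libraries, by 3.01- to 3.79-fold at the 4 ratios from 1:1 to 1:1000. At 1:1 it had 141866, 2658 and 22725 counts in oxidised replicates 1, 2 and 3, against 53564, 3911 and 28517 in untreated ones. These were 12.2%, 8.72% and 7.10% of the fly counts of the oxidised libraries, against 3.39%, 2.59% and 2.59% of the untreated. Every oxidised library at 1:1 thus lay above every untreated one.

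At 1:10 the 5p arm took 12.1%, 7.89% and 10.3% of fly counts in oxidised libraries, against 4.76%, 2.31% and 3.30% in untreated libraries. At 1:100 the shares were 14.6%, 9.04% and 9.98% in oxidised libraries and 4.47%, 2.54% and 3.00% in untreated ones. At 1:1000 they were 12.0%, 15.0% and 14.3% after oxidation, against 5.05%, 4.82% and 1.94% without it. The groups were separate at all 3 of these ratios, as at 1:1.

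In the most dilute mixtures the groups were no longer separate. At 1:10000 the oxidised shares were 8.17%, 3.39% and 5.97%, on 51, 870 and 550 counts, and the untreated shares 10.5%, 0.820% and 1.46%, on 64, 3 and 18 counts. At 1:100000 they were 8.0%, 2.20% and 1.06% after oxidation, on 22, 54 and 14 counts, against 9.49%, 2.17% and 1.30% without it, on 173, 3 and 6 counts. The groups overlapped at both ratios, and with 3 counts of 366 fly counts in untreated 1:10000 replicate 2 the 95% Wilson interval of its 0.820% ran from 0.279% to 2.38%, for counting error only. Replicate 1 gave the highest share among the untreated libraries at all 6 ratios.

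**Figure D1:**
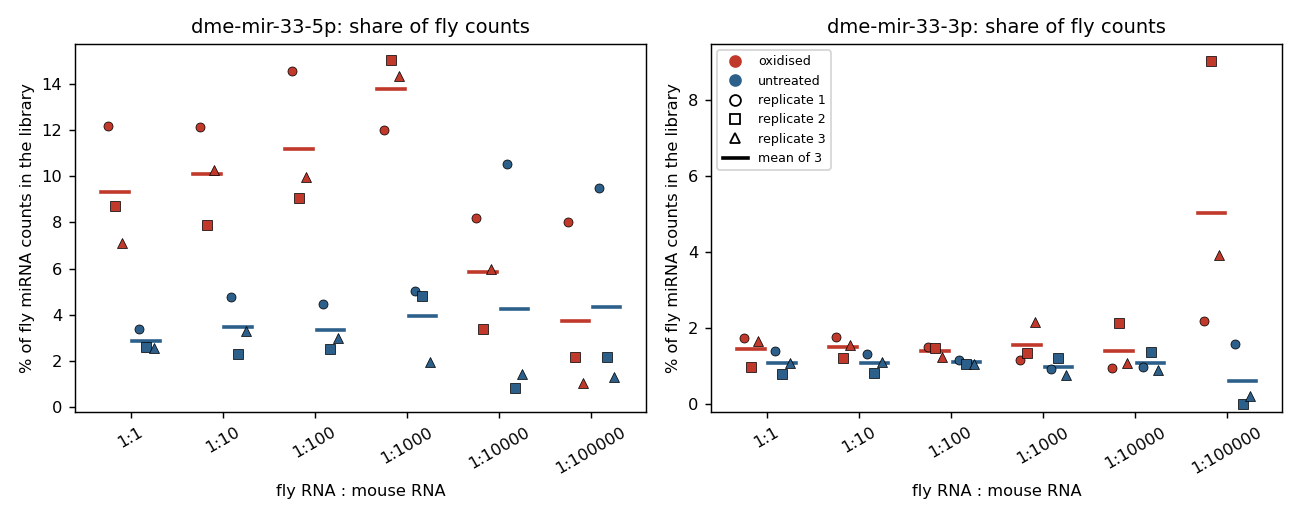
Share of each dme-mir-33 arm in the fly miRNA counts of a library (percent, vertical axis) by mixing ratio (horizontal axis), for oxidised and untreated libraries; points are libraries and bars the mean of 3. For dme-mir-33-5p the oxidised libraries lie above the untreated from 1:1 to 1:1000 and overlap them at 1:10000 and 1:100000, where the means are 5.84% and 4.27%, and 3.75% and 4.32%.

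On the log2 scale of the share, with 0.5 added to each count, the 5p difference of oxidised minus untreated was 1.68 at 1:1, 1.59 at 1:10, 1.76 at 1:100 and 1.92 at 1:1000. Each had an exact two-sided permutation p of 0.1, the smallest that 3 against 3 allows (0.15 adjusted over the 6 ratios). The difference was 1.16 at 1:10000 (exact p = 0.4, adjusted 0.48) and -0.26 at 1:100000 (exact p = 0.7, adjusted 0.7), where the shares themselves were higher after oxidation in 1 of 3 pairs. Over all ratios the mean was 1.31, or 2.48-fold (exact permutation within ratios, p = 0.000334), and the share was higher in 15 of 18 pairs. With mmu-mir-33-5p reads counted as dme-mir-33-5p the mean turned to -0.99 (exact permutation p = 0.0519), and the groups at 1:100 were no longer separate (0.45, exact permutation p = 0.6). A share depends on the other fly miRNAs as well: dme-bantam-3p, a growth-promoting miRNA, took 10.4% ± 0.214 of fly counts in oxidised and 42.8% ± 8.36 in untreated 1:1 libraries (SD, n = 3 each). Its mean was 18.8%, 28.5% and 32.8% in oxidised libraries at 1:1000, 1:10000 and 1:100000, against 41.9%, 34.9% and 19.5% in untreated ones. At 1:100000 the oxidised mean of dme-bantam-3p was thus the higher. With dme-bantam-3p left out of the total the mean 5p difference was 0.97 (exact permutation p = 0.000769).

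Such a shift was common among fly miRNAs at high fly RNA and rare at low. Of the 128 fly entries whose untreated 1:1 libraries averaged at least 10 counts, 41.4% had all 3 oxidised shares above the 3 untreated at 1:1, 35.2% at 1:10, 28.9% at 1:100, 7.03% at 1:1000, 1.56% at 1:10000 and 3.12% at 1:100000. By size of the log2 difference dme-mir-33-5p ranked 20th, 17th, 16th and 7th of these 128 at the ratios from 1:1 to 1:1000, and 4th and 49th at the 2 most dilute.

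In order of mean share, dme-mir-33-5p was 3rd among fly entries in oxidised 1:1 libraries with 9.33% ± 2.59 (SD, n = 3), and 7th in untreated ones with 2.86% ± 0.463. In oxidised libraries it stood between dme-bantam-3p and dme-mir-282-3p with 6.65% ± 0.671, and in untreated libraries between dme-mir-34-5p with 3.20% ± 0.589 and dme-mir-11-3p with 2.51% ± 0.569. Its range of values overlapped those of these neighbours in each case. In replicate 1 it was the leading fly entry of the oxidised 1:1, 1:10 and 1:100 libraries.

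In oxidised libraries the mean 5p share was 9.33%, 10.1%, 11.2% and 13.8% at the ratios from 1:1 to 1:1000, and 5.84% and 3.75% at 1:10000 and 1:100000. The mean slope of the log2 share was 0.31 per 10-fold more fly RNA in oxidised libraries (exact permutation of the ratios within sets, p = 0.0104; 0.14, 0.37 and 0.44 in sets 1, 2 and 3) and 0.00 in untreated libraries (exact permutation p = 0.964; -0.32, 0.09 and 0.24). The difference of the slopes was 0.31 (exact permutation p = 0.0128), but it missed the threshold without replicate 1 (0.24, permutation p = 0.149), without replicate 2 (0.33, permutation p = 0.0541) and with dme-bantam-3p left out of the total (0.15, permutation p = 0.112). The oxidised slope and the difference rested on the 2 most dilute ratios. Over 1:1 to 1:1000 alone, a choice made after seeing the data, the oxidised slope was -0.19 (exact permutation p = 0.0158) and the difference -0.09 (exact permutation p = 0.484).

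As a part of all miRNA counts of both species, dme-mir-33-5p was kept high in oxidised libraries far into the dilution. At 1:1 it had 108049, 76631 and 64435 counts per 1000000 in oxidised libraries, against 10070, 11968 and 12128 in untreated libraries. At 1:1000 it had 27915, 95108 and 88586 counts per 1000000 after oxidation, against 33.3, 142 and 31.8 without it. At 1:100000 the values were 3976, 1034 and 2180 in oxidised libraries and 60.5, 0.890 and 0.695 in untreated ones, with no overlap of the groups at any of these 3 ratios. Fly counts as a whole made up a mean of 89.1% of all counts in oxidised and 40.9% in untreated 1:1 libraries. At 1:1000 these means were 49.4% and 0.175%, and at 1:100000 10.1% and 0.0244%. How many other fly entries were separate on this scale was not counted.

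**Figure D2:**
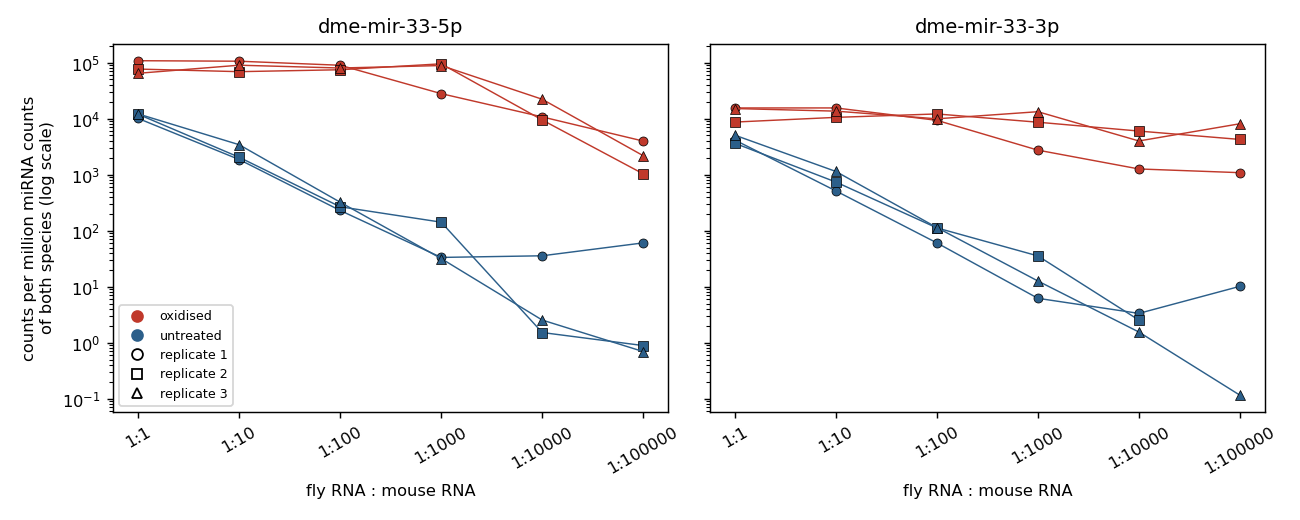
Abundance of each arm as counts per 1000000 miRNA counts of both species (log axis) by mixing ratio, for oxidised and untreated libraries; points are libraries. Oxidised libraries lie above untreated ones at every ratio for both arms, and how many other fly entries did so was not counted. The 0 of dme-mir-33-3p in untreated 1:100000 replicate 2 cannot be drawn on the log axis.

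Relative to mouse counts the 5p arm fell by less than the fly RNA put in. The least squares slope of its log10 counts per 1000000 mouse counts on the log10 mixing ratio was 0.505 ± 0.0529 (SE, n = 18) in oxidised and 0.781 ± 0.0717 in untreated libraries, where 1 would be proportional. Within sets it was 0.515, 0.539 and 0.460 in oxidised libraries, against 0.511, 0.892 and 0.940 in untreated ones. In set 1 the slope was thus about the same with and without oxidation, but its untreated libraries stopped following the dilution beyond 1:1000. There dme-mir-33-5p had 14325 counts per 1000000 mouse counts at 1:1 and 33.3 at 1:1000, then 35.6 at 1:10000 and 60.5 at 1:100000. All fly counts made up 0.0659%, 0.0338% and 0.0638% of these libraries at 1:1000, 1:10000 and 1:100000. Pearson's r was 0.922 and Spearman's rho 0.956 in oxidised libraries, and 0.939 and 0.931 in untreated libraries. Without the replicate 1 libraries at 1:1 and 1:100000, r was 0.908 in oxidised and 0.978 in untreated libraries. The untreated 1:100000 library left out was the one with 60.5 counts per 1000000 mouse counts. Each of the 8 coefficients of both arms had a permutation p of 1e-05, the smallest of 100000 permutations, and 1e-05 adjusted over the 8. The fly RNA was diluted by design, so these p-values show nothing beyond the dilution. The permutation also shuffled all 18 libraries without regard to their sets. The summed mouse entries changed in make-up, and among them mmu-mir-184-3p fell with the fly RNA from 1:1 to 1:1000. It took 88.0% ± 3.31 of mouse counts in oxidised and 7.66% ± 3.07 in untreated 1:1 libraries (SD, n = 3 each). At 1:10, 1:100 and 1:1000 its mean was 82.3%, 42.7% and 3.86% in oxidised libraries, against 0.756%, 0.0858% and 0.0107% in untreated ones. At 1:100000 it was 1.38% ± 1.46 against 0.00407% ± 0.00427. The part of mmu-mir-184-3p in the slopes, and in the edgeR changes that are also scaled to mouse counts, was not tested.

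The 3p arm, dme-mir-33-3p, is the less abundant product of the hairpin and took 1.47% ± 0.417 of fly counts in oxidised and 1.09% ± 0.305 in untreated 1:1 libraries (SD, n = 3 each). At 1:1 it had 20345, 301 and 5336 counts in oxidised libraries, against 22044, 1185 and 11906 in untreated libraries. Its mean share stayed between 1.39% and 1.56% in oxidised libraries from 1:1 to 1:10000, against 0.973% to 1.10% in untreated ones. The groups overlapped at 1:1, 1:10, 1:1000 and 1:10000 and were separate at 1:100.

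At 1:100000 the 3p arm stood out. It took 2.18%, 9.03% and 3.92% of fly counts in the oxidised libraries, on 6, 222 and 52 counts, against 1.59%, 0% and 0.217% in the untreated, on 29, 0 and 1 counts. The 0 of 138 fly counts in untreated replicate 2 allows a share of up to 2.17% by the floor of 3 counts, and the upper bound of its 95% Wilson interval is 2.71%. Replicates 2 and 3 after oxidation lay above all other oxidised libraries of the series, and by rank the 3p arm was the 2nd and 3rd fly entry there.

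The log2 difference of the 3p share was 0.43 at 1:1 (exact permutation p = 0.3), 0.49 at 1:10 (p = 0.2), 0.35 at 1:100 (p = 0.1), 0.66 at 1:1000 (p = 0.2), 0.23 at 1:10000 (p = 0.6) and 2.93 at 1:100000 (p = 0.1), each from an exact test with 3 against 3. The mean over ratios was 0.85, higher in 17 of 18 pairs (exact permutation within ratios, p = 0.000129). With dme-bantam-3p left out of the fly total it was 0.51 and missed the threshold (exact permutation p = 0.0943). Among the 128 fly entries the 3p arm ranked 63rd by this difference at 1:1 and 1st at 1:100000.

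The slope of the 3p share was -0.22 per 10-fold more fly RNA in oxidised libraries (exact permutation p = 0.0348; 0.01, -0.52 and -0.16 in sets 1, 2 and 3) and 0.12 in untreated libraries (exact permutation p = 0.145), a difference of -0.34 (exact permutation p = 0.0348; 0.01, -0.61 and -0.44 in sets 1, 2 and 3). The oxidised slope missed the threshold without replicate 2 (-0.071, permutation p = 0.486), without replicate 3 (-0.26, permutation p = 0.0621) and without 1:10000 and 1:100000 (-0.025, permutation p = 0.746). The difference missed it without replicate 2 (-0.21, permutation p = 0.203), without replicate 3 (-0.30, permutation p = 0.189) and without 1:10000 and 1:100000 (-0.06, permutation p = 0.609). In counts per 1000000 of both species the 3p arm had 8626, 5995 and 4250 in oxidised replicate 2 at 1:1000, 1:10000 and 1:100000, 13289, 3990 and 8097 in oxidised replicate 3, and 2737, 1263 and 1084 in oxidised replicate 1. The 5p arm had 95108, 9466 and 1034 in replicate 2, 88586, 22169 and 2180 in replicate 3, and 27915, 10738 and 3976 in replicate 1. In each replicate the 3p arm was lower at 1:100000 than at 1:1000, and by a smaller factor than the 5p arm. Relative to mouse counts the slope of the 3p arm was 0.343 ± 0.0459 in oxidised and 0.817 ± 0.0590 in untreated libraries (SE, n = 18 each). Within sets it was 0.478, 0.271 and 0.281 in oxidised and 0.608, 0.891 and 0.952 in untreated libraries. Here r was 0.882 and 0.961 and rho 0.900 and 0.956, and r was 0.852 and 0.990 without the replicate 1 libraries at 1:1 and 1:100000.

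The balance of the arms was tested where every library had 100 or more counts over both, and it moved toward 5p with oxidation. The 3p arm made up 12.5%, 10.2% and 19.0% of the counts of both arms in oxidised 1:1 libraries, against 29.2%, 23.3% and 29.5% in untreated ones. At 1:10 it was 12.8%, 13.3% and 13.1% after oxidation, against 21.6%, 26.6% and 25.0% without it. At 1:100 it was 9.42%, 14.0% and 11.0% in oxidised libraries and 20.9%, 29.6% and 26.1% in untreated ones. All 3 oxidised libraries lay below all 3 untreated at each of these ratios.

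The mean difference over these 3 ratios was -12.9 percentage points, lower in 9 of 9 pairs (exact permutation within ratios, p = 0.00025, the smallest possible; exact sign-flip permutation over pairs, p = 0.00391). At each ratio it was -13.4, -11.3 and -14.0 points with an exact two-sided permutation p of 0.1. At 1:1000, with at least 20 counts over both arms, it was -11.3 points, on 10.1% ± 2.57 after oxidation against 21.4% ± 6.48 without it (SD, n = 3 each). For comparison, each fly hairpin was described by the arm that was less abundant in untreated 1:1 libraries. This arm was lower after oxidation without overlap in 16.7% of 30 hairpins at 1:1, 10% of 30 at 1:10 and 18.2% of 11 at 1:100, and higher in 53.3%, 63.3% and 45.5%. Apart from mir-33 itself, which is among those that were lower, mir-2b-2 was so at all 3 ratios and mir-9c at 1:1 and 1:10, hairpins singled out after their values were seen.

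At the lowest fly RNA the balance turned in some libraries. At 1:10000 the 3p arm made up 10.5%, 38.8% and 15.3% of both arms in oxidised libraries, against 8.57%, 62.5% and 37.9% in untreated ones, of which replicates 2 and 3 had 8 and 29 counts over both arms. At 1:100000 it made up 21.4% (95% Wilson interval 10.2% to 39.5%), 80.4% (75.4% to 84.7%) and 78.8% (67.5% to 86.9%) in oxidised libraries. The untreated 1:100000 libraries had 14.4%, 0% and 14.3%, replicate 2 on 3 counts over both arms. Oxidised replicates 2 and 3 thus had more 3p than 5p, which no other oxidised library had.

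**Figure D3:**
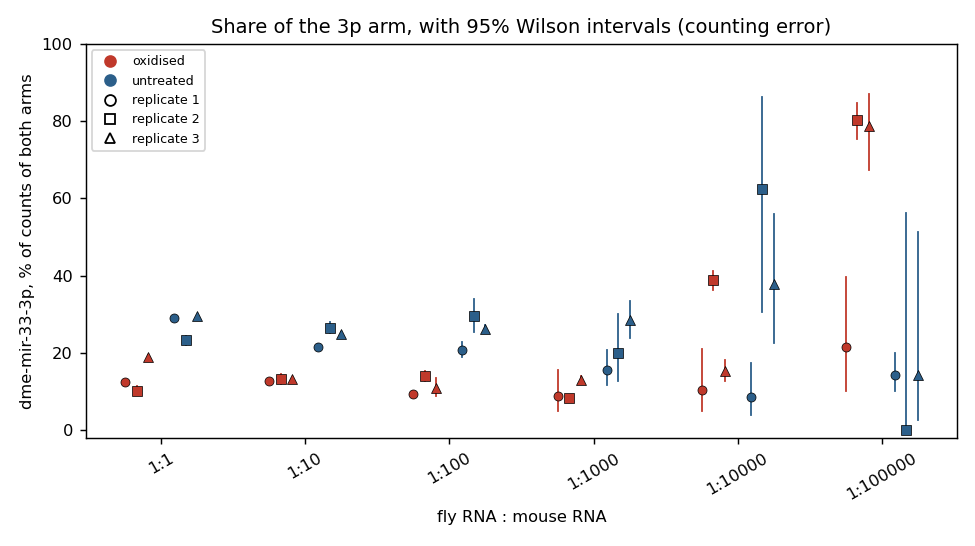
Share of dme-mir-33-3p in the counts of both arms (percent, vertical axis) by mixing ratio, with 95% Wilson intervals for counting error; points are oxidised and untreated libraries. Oxidised libraries lie between 8.32% and 19.0% from 1:1 to 1:1000, and reach 80.4% and 78.8% in replicates 2 and 3 at 1:100000.

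Both arms were also tested with edgeR's quasi-likelihood test across all entries, relative to mouse miRNAs, with Benjamini-Hochberg adjustment over all 576 tested entries. Both rose with oxidation at every ratio, and both were higher in 18 of 18 pairs. Most fly entries were called higher on this scale, as given below, and their pairs were not counted. The change of dme-mir-33-5p was 7.96 ± 1.64 log2 at 1:1 (SE, adjusted p = 0.000175), 10.25 ± 1.80 at 1:10 (adjusted p = 1.4e-05), 10.80 ± 1.83 at 1:100 (adjusted p = 1.04e-05) and 11.02 ± 1.85 at 1:1000 (adjusted p = 1.06e-05). It was 8.65 ± 1.70 at 1:10000 (adjusted p = 0.000116) and 6.12 ± 1.53 at 1:100000 (adjusted p = 0.00338), but 13.08 and 10.68 without replicate 1, and 5.69 at 1:100000 without replicate 3 (adjusted p = 0.0807). Scaled to total counts it was 2.87 at 1:1 (adjusted p = 0.00577) and 5.17 at 1:10 (adjusted p = 4.3e-05), and scaled to mouse totals alone 5.27 at 1:1 (adjusted p = 0.000439). The change of dme-mir-33-3p ran from 6.75 ± 1.32 at 1:1 (adjusted p = 9.22e-05) to 10.03 ± 1.55 at 1:10000 (adjusted p = 5.29e-06) and was 9.63 ± 1.51 at 1:100000 (adjusted p = 1.42e-05), or 15.28 without replicate 1. Scaled to total counts the 3p value was 1.62 at 1:1 and missed the threshold (adjusted p = 0.0708), and it was 4.05 at 1:10 (adjusted p = 0.000169), while mouse totals alone gave 4.08 at 1:1 (adjusted p = 0.00121). Fitted within 1:100000 alone, neither arm passed the threshold (6.22 for 5p, adjusted p = 0.143, and 9.70 for 3p, adjusted p = 0.0746). Averaged over ratios the changes were 9.13 ± 0.71 for 5p and 9.16 ± 0.60 for 3p (adjusted p = 3.54e-13 and 9.1e-15), with a trend over ratios of 0.39 ± 0.30 and -0.50 ± 0.26 log2 per 10-fold more fly RNA (adjusted p = 0.904 and 0.512). Without replicate 1 the 5p trend turned to -0.78 and passed the threshold (edgeR adjusted p = 0.00224). The trends depended on the scaling: with TMM over all entries, total counts, and mouse totals alone they were -0.049, -1.04 and -0.50 for 5p (adjusted p = 1, 0.000112 and 0.0818) and -0.95, -1.89 and -1.34 for 3p (adjusted p = 0.0423, 1.08e-08 and 5.9e-05).

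At the ratios richest in fly RNA nearly every fly miRNA was called higher on this scale, and at the most dilute ratios fewer were. The filter on low counts drew on all 36 libraries, so a fly entry could pass it through oxidised libraries alone, where it was high. The parts called higher carry this selection, and its effect was not tested. An entry without counts in either group of a ratio stayed among those tested and could not be called there. At 1:100000 this held for dme-mir-12-3p and dme-mir-304-3p among others, and the average of dme-mir-12-3p over ratios had an SE of 13305. Fly entries called higher were 98.3% of 117 at 1:1, 99.1% at 1:10, 94% at 1:100, 82.1% at 1:1000, 73.5% at 1:10000 and 56.4% at 1:100000 and 57.3% on average over ratios, with 0 called lower at any ratio and 0 lower at an unadjusted p under 0.05. The median fly change was 6.93 at 1:1 and 9.31 at 1:1000. It depended on the scaling, with 1.86 at 1:1 when libraries were scaled to total counts, 4.34 to mouse totals without trimmed mean (TMM) factors and 5.27 with TMM over all entries. Relative to the median fly entry dme-mir-33-5p was higher by 1.03, 1.07, 1.53 and 1.71 log2 at the ratios from 1:1 to 1:1000, and it stood at -0.63 at 1:10000 and -0.88 at 1:100000. Under the 3 other scalings it lay 0.93 to 1.77 above the median from 1:1 to 1:1000, but at 1:10000 it stood at 0.33 with total counts and with mouse totals alone. The 3p arm stood at -0.18, -0.05, 0.22 and 0.61 from 1:1 to 1:1000 and at 0.75 and 2.62 at 1:10000 and 1:100000, and its sign at 1:1, 1:10 and 1:100 changed with the scaling.

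**Figure D4:**
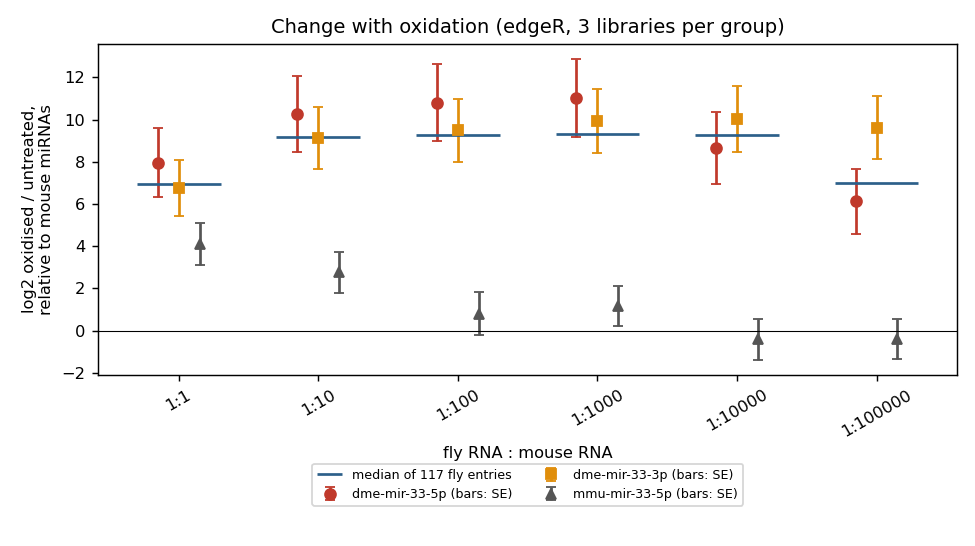
Log2 change of the mir-33 entries with oxidation relative to mouse miRNAs (vertical axis, edgeR, bars are SE) by mixing ratio; the lines mark the median of 117 fly entries. The change of dme-mir-33-5p lies above the median from 1:1 to 1:1000 and below it at 1:10000 and 1:100000, while mmu-mir-33-5p runs from 4.10 at 1:1 to -0.39 at 1:100000.

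The mouse relative mmu-mir-33-5p, of the same miRNA family, was measured in the same libraries. It had 357, 1 and 17 counts in oxidised 1:1 libraries, against 4257, 47 and 363 in untreated ones, which was 0.252%, 0.0376% and 0.0748% of the dme-mir-33-5p counts after oxidation, against 7.95%, 1.2% and 1.27% without it. At 1:100000 it had 7, 43 and 6 counts in oxidised libraries, against 4439, 1823 and 4628 in untreated libraries, and its untreated counts were 25.7, 608 and 771 times those of dme-mir-33-5p. How reads that match both entries were shared is not given in the sources used here, so the low dme-mir-33-5p counts of dilute untreated libraries and the low mmu-mir-33-5p counts of oxidised libraries rich in fly RNA are uncertain.

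Relative to mouse miRNAs, mmu-mir-33-5p rose by 4.10 ± 1.01 log2 at 1:1 (edgeR adjusted p = 0.00143) and 2.76 ± 0.97 at 1:10 (adjusted p = 0.0356), where 1.74% and 2.4% of 459 mouse entries were called higher. Its values were 0.81 at 1:100 (adjusted p = 0.735), 1.16 at 1:1000 (adjusted p = 0.427, but 1.35 with adjusted p = 0.0430 when the libraries were paired by mixture), -0.42 at 1:10000 (adjusted p = 0.835) and -0.39 at 1:100000 (adjusted p = 1). The change differed between ratios by 0.90 ± 0.23 log2 per 10-fold more fly RNA (edgeR adjusted p = 0.0338, with 1.31% of mouse entries called in this direction), which missed the threshold without replicate 2 (0.94, adjusted p = 0.402) and without replicate 3 (0.94, adjusted p = 0.322). On average over ratios it was 1.34 ± 0.39 (adjusted p = 0.00782), with counts per mouse count higher in 16 of 18 pairs, where 3.05% of mouse entries were called higher, and this was lost without replicate 2 (1.17, adjusted p = 0.0865) and without replicate 3 (1.26, adjusted p = 0.0726). The call at 1:10 was lost without replicate 2 (2.47, adjusted p = 0.177) and without replicate 3 (2.67, adjusted p = 0.222). Both calls and their trend depended on the scaling: with total counts the value at 1:1 was -1.51, and with mouse totals alone 1.06. The other arm, mmu-mir-33-3p, had 1 to 655 counts in untreated libraries and was at 0 in 14 of 18 oxidised ones.

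The fly entries whose share ran most like that of dme-mir-33-5p over the 36 libraries were dme-mir-8-5p (Spearman rho 0.811), dme-mir-2a-2-5p (0.807), dme-mir-282-3p (0.789), dme-mir-2a-2-3p (0.785) and dme-mir-988-3p (0.778). The 127 entries compared had a median rho of -0.112, and dme-mir-33-3p ranked 24th with 0.370. These coefficients share their libraries and totals and carry no p.

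A list of fly miRNAs known for roles in metabolism held the arms of mir-33, of mir-14 and mir-278, which act on fat storage and insulin signalling, of mir-277, which acts on amino acid breakdown, and of mir-8, which acts on insulin-dependent growth. All 10 arms were called higher at 1:1 and 9 of 10 at 1:1000, where 98.3% and 82.1% of all fly entries were. The medians were 7.31 and 9.72 log2 against 6.93 and 9.31 over all fly entries. At 1:100000, 9 of 10 were called higher, where 56.4% of all fly entries were, with a median of 7.79 against 7.0. The arm outside these counts at 1:1000 and 1:100000 was dme-mir-278-5p, which had no counts in either group there. At 1:1 it had 78 counts in the oxidised and 32 in the deeper untreated libraries. Arms of this list and the next could pass the filter on low counts through oxidised libraries alone, like any fly entry. At 1:1 the share of dme-mir-8-5p was 1.72% ± 0.450 in oxidised and 0.523% ± 0.134 in untreated libraries, and that of dme-mir-14-5p 0.891% ± 0.261 and 0.309% ± 0.136 (SD, n = 3 each). Other arms differed less or the other way, such as dme-mir-277-3p with 3.20% ± 0.974 in oxidised and 1.59% ± 1.02 in untreated libraries and dme-mir-14-3p with 0.380% ± 0.0587 and 0.334% ± 0.114, and dme-mir-278-3p had 0.0302% ± 0.0257 in oxidised and 0.0496% ± 0.0334 in untreated libraries.

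A choice of fly miRNAs that lie, like mir-33, in introns of protein-coding genes was described as a further list of 16 arms (mir-33, mir-11, mir-308, mir-7, mir-12, mir-283, mir-304 and mir-190). The list is not complete, and of the host genes only that of mir-33 was looked up. Of its arms 15 passed the filter on low counts and dme-mir-7-5p did not. All 15 were called higher from 1:1 to 1:1000, then 12 at 1:10000 and 8 at 1:100000. Of all fly entries 98.3%, 99.1%, 94% and 82.1% were called from 1:1 to 1:1000, 73.5% at 1:10000 and 56.4% at 1:100000. Those not called at 1:10000, dme-mir-283-3p, dme-mir-304-3p and dme-mir-7-3p, had no counts in either group. At 1:100000 this held for dme-mir-12-3p, dme-mir-304-3p and dme-mir-7-3p. The others not called there, dme-mir-12-5p, dme-mir-190-5p, dme-mir-190-3p and dme-mir-283-3p, had 1, 1, 0 and 0 oxidised against 5, 19, 1 and 1 untreated counts. The median change of the listed arms was 6.93 log2 at 1:1 and 6.12 at 1:100000, where the medians over all fly entries were 6.93 and 7.0. Arms without counts entered it at 0. The arms of mir-308, which lies in the ribosomal protein gene RpS23, parted: dme-mir-308-5p took 0.946% ± 0.111 of fly counts in oxidised and 0.151% ± 0.0442 in untreated 1:1 libraries, and dme-mir-308-3p 0.250% ± 0.0515 and 0.817% ± 0.548 (SD, n = 3 each). For dme-mir-11-3p, from the cell cycle gene E2f1, the shares were 2.88% ± 0.655 in oxidised and 2.51% ± 0.569 in untreated libraries.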

How the data were processed

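The authors deposited expected counts (estimated counts, not always whole) for each miRNA arm of both species in 1 file per library, per the file headers, without scaling, and 80.0% to 98.1% of the listed values were whole (tolerance 0). Per the submitters' processing notes, mm10, dm3, HTSeq 0.6.1p1 and cutadapt 1.2.1 were used, in roles they do not state. Neither the aligner nor the sharing of multiply matching reads is given in the sources used here. Per the labels' protocols, size selection kept 18 to 30 nt, 2S rRNA was removed, and adapters ended in 4 random nucleotides. The random nucleotides are not stated to have been used to count molecules. Set 1, whose labels carry no number, held 25 µg of mouse RNA per mixture (HiSeq2500), and sets 2 and 3 held 50 µg of total RNA (HiSeq2000). The 257 entries missing from set 1, at most 6 counts elsewhere, were set to 0. No pair of libraries was a copy (over 630 pairs the chi-square per degree of freedom was at least 1.82).

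Counts were rounded and fitted with edgeR 4.0.16 (R 4.3.3): 1 mean per group over 36 libraries, filterByExpr (minimum count 10, minimum total 15), offsets of mouse totals times TMM factors from mouse entries, and calls at an adjusted p below 0.05. The test was first run on simulated data, with TMM over all entries and with shallow libraries given a higher depth. That run therefore did not check the scaling to mouse counts or the depth of the shallow oxidised libraries. Shares were log2 of the count plus 0.5 over the fly total plus 1, compared by exact two-sided permutation. Intervals are Wilson 95% and floors are 3 counts, and both cover counting error only.

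Each mixture was split into its oxidised and untreated part, per the labels, which pairs the libraries. Deviations of 300 entries had a median r of 0.241 over 18 pairs, above 0.1 in 12, and 11 libraries correlated best with their own number. Besides the mir-33 entries, the genes named were the 5 fly entries most like dme-mir-33-5p, its neighbours by share at 1:1, members of both lists that averaged at least 10 counts in untreated 1:1 libraries, and dme-bantam-3p. Naming mmu-mir-184-3p and dme-mir-124-3p was a choice made after values were seen. The members, lists and tests were chosen with earlier results of these data known. Alternatives were other scalings, filters, pseudocounts and totals, DESeq2 1.42.0, replicate blocks, fits within a ratio, and leaving out replicates or dilute ratios. No sequence is printed.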

Additional observations from a re-analysis of the deposited data

Results flagged for a closer look

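The difference in the share of dme-mir-33-5p between oxidised and untreated libraries was itself tested for a change over mixing ratios. It changed by 0.31 log2 per 10-fold more fly RNA (exact permutation p = 0.0128). The values in sets 1, 2 and 3 were 0.45, 0.28 and 0.20. The change missed the threshold without replicate 1 (0.24, permutation p = 0.149) and without replicate 2 (0.33, permutation p = 0.0541). It missed it too with dme-bantam-3p left out of the total (0.15, permutation p = 0.112). Without the 2 most dilute ratios, a choice made after seeing the data, it was -0.088 (permutation p = 0.484). Without replicate 3 (0.37, permutation p = 0.00457) and under the other settings it passed. For dme-mir-33-3p the same test gave -0.34 (exact permutation p = 0.0348). This missed the threshold without replicate 2 (-0.21, permutation p = 0.203) and without replicate 3 (-0.30, permutation p = 0.189). Without the 2 most dilute ratios the 3p value was -0.056 (permutation p = 0.609). Without replicate 1 (-0.52, permutation p = 0.0316) and under the other settings it passed. The edgeR change of mmu-mir-33-5p differed between ratios by 0.90 log2 per 10-fold more fly RNA (adjusted p = 0.0338). Its sign depended on the scaling, with -0.51 for total counts (edgeR adjusted p = 0.0496). It missed the threshold with TMM over all entries (0.56, adjusted p = 0.193) and with mouse totals alone (0.073). Leaving out replicate 2 (0.94, adjusted p = 0.402) or replicate 3 (0.94, adjusted p = 0.322) also ended the call. Without replicate 1 (0.53, adjusted p = 0.00342) and under the other settings the call held. The groups of 3 libraries are too small for a test for a single outlying library.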

How the results depend on the processing

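Depth limits the most dilute untreated libraries, where 0 to 6 counts of an arm decide a share, and the group size limits each ratio to an exact p of 0.1; for all values here that differ from the report, the cause was not tested unless the setting names it. With the mixture as a block in the fit, that is, with oxidised and untreated libraries paired, dme-mir-33-5p changed by 11.25 log2 at 1:10000 and 8.83 at 1:100000, its trend was -0.24, and the paired sign-flip permutation of its mean share difference gave p = 0.000122; the block ended no call of either arm. Counting mmu-mir-33-5p reads as dme-mir-33-5p gave a share difference of 0.45 at 1:100 and -4.43 at 1:100000, turned it to -1.23 at 1:1000, -3.64 at 1:10000 and -0.99 over all ratios, and the untreated trend to -1.11. Leaving dme-bantam-3p out of the fly total gave 0.010 for the 5p difference at 1:100000, 0.15 for the 5p trend difference, 0.51 for the mean 3p difference and 0.20 for the untreated 3p trend. A pseudocount of 1 gave an untreated 5p trend of -0.016. Without 1:10000 and 1:100000 the oxidised, untreated and difference trends were -0.19, -0.10 and -0.088 for 5p, and for 3p the oxidised trend was -0.025 and the difference -0.056. Leaving out 1 replicate gave untreated 5p trends of -0.11 to 0.16, 5p trend differences of 0.24 to 0.37, oxidised 3p trends of -0.34 to -0.071 and 3p trend differences of -0.52 to -0.21.

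In edgeR, fits within each ratio gave 6.22 (adjusted p = 0.143) for 5p and 9.70 (adjusted p = 0.0746) for 3p at 1:100000, and leaving out 1 replicate gave 5.69 to 10.68 for 5p there. With TMM over all entries, total counts, and mouse totals alone the 5p trend was -0.049, -1.04 and -0.50 and the 3p trend -0.95, -1.89 and -1.34, against 0.39 and -0.50 in the report. With 1 replicate left out the trends ran from -0.78 to 0.59 for 5p and from -1.55 to -0.24 for 3p. The 5p value of -0.78, without replicate 1, passed the threshold (edgeR adjusted p = 0.00224). The 3p change at 1:1 was 1.62 with total counts (adjusted p = 0.0708). For mmu-mir-33-5p the same 3 scalings gave 3.23, -1.51 and 1.06 at 1:1, 0.94, -1.99 and 0.92 at 1:10, and 0.56, -0.51 and 0.073 for the trend. TMM over all entries and total counts gave -0.14 and -1.04 at 1:100 and 0.77 and -0.54 on average, and no filter on low counts gave -0.047 at 1:100. Total counts and mouse totals alone gave 0.60 and 1.01 at 1:10000 and 0.17 and 0.32 at 1:100000. The set block and the mixture block gave mmu-mir-33-5p 1.44 and 1.35 at 1:1000 (adjusted p = 0.00925 and 0.0430), 0.17 and 0.20 at 1:10000, and 0.088 and 0.018 at 1:100000. Leaving out 1 replicate gave 2.47 to 2.97 at 1:10, 0.87 to 1.70 at 1:1000, -0.54 to 0.65 at 1:10000, -0.65 to 0.53 at 1:100000, 1.17 to 1.65 on average and 0.53 to 0.94 for the trend.

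Fly entries called higher were 66 with total counts at 1:1 (115 of 117 tested in the report), 231 at 1:1 and 216 at 1:10 without a filter, 55, 43 and 8 at 1:1000, 1:10000 and 1:100000 in fits within each ratio, 39 to 66 at 1:100000 without 1 replicate (39 without replicate 3), and 369 on average with DESeq2. The runs without a filter and with DESeq2 drew on up to all 372 fly entries. Fits within each ratio and fits without 1 replicate filtered the entries anew. These counts therefore have other totals than the 117 of the report and cannot be set against its counts. The other settings left direction and call as reported.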
